A study of Mus musculus with 12 samples.

Results

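The genes of mitosis and the spindle were examined in crypt-enriched tissue of mice that carry 1 trapped copy of Zfp148, which encodes a zinc finger transcription factor. The set was a fixed list of 49 genes that drive a cell from the end of DNA replication to the separation of its daughters. A gene was taken as measured when a transcript cluster of the array, the group of probes that reports 1 gene, carried its symbol and no other. This held for 47 of the 49 genes, each with exactly 1 cluster, out of 22180 genes with a cluster of their own on the array. Ccnb1 and Ccnf had no such cluster and were not analysed here. Clusters shared with other genes also named Top2a (2 clusters) and Nusap1 (1 cluster), and these were not used.

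Tissue enriched for crypts was cut by laser microdissection from the proximal small intestine of 12 mice, 1 Affymetrix Gene 2.0 ST array per mouse. Of these, 6 were Zfp148gt/+APCMin/+ mice (numbers 783, 891, 892, 893, 897 and 911, called Zfp148gt/+ mice from here on) and 6 were Zfp148+/+APCMin/+ controls (782, 885, 888, 889, 895 and 899). All mice were 12 weeks old, had a mixed genetic background and carried the Min allele, a truncating mutation of Apc that predisposes to intestinal tumors, so no sample was wild type for Apc. The gt allele is a gene trap present in every cell of the animal, not only in the crypt epithelium, and the controls are described as littermates without saying which mice share a litter. Zfp148 itself had a log2 signal of 5.45 ± 0.37 (SD, n = 6 mice) in Zfp148gt/+ mice and 6.34 ± 0.31 (SD, n = 6) in controls, and no measured member lies on its chromosome, 16. The crypt base and Paneth cell marker lists were above the array-wide median signal for 4 of 4 and 6 of 6 genes, but so were 10 of 12 villus enterocyte and 12 of 12 stromal genes, so genes of other cell types were measured as well. The arrays correlated with each other at a median r of 0.967 to 0.978 per array across clusters, with mice 891, 892 and 893 lowest.

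Cells enter mitosis when cyclin B binds and activates the kinase Cdk1, and they leave it when the anaphase-promoting complex, loaded with Cdc20, marks cyclin B and securin for destruction. In between, kinetochores attach the chromosomes to a spindle built by motors and kinases, and the spindle checkpoint holds Cdc20 back until every chromosome is attached. In the small intestine most dividing cells are the stem and transit-amplifying cells of the crypt, while villus cells have stopped dividing. The mRNAs of these genes accumulate late in the cell cycle, and the DREAM complex, which p53 engages through p21, is known to repress many of them.

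Every measured member was expressed above the array-wide median of 2.71, with mean log2 signals over 12 mice between 4.83 and 9.43, and no member differed between genotypes at the adjusted threshold. A log2 difference of -1 corresponds to a 2-fold lower signal. Differences between Zfp148gt/+ mice and controls ran from -0.38 for Bub3 to 0.19 for Bub1b, with a median of -0.06 over the 47 members, against 0.02 over all 33793 clusters and -0.04 over the 16896 clusters above the median signal. The sign of the members' median was not stable, since it was 0.0088 with a second quantile normalization and 0.07 without the 3 arrays of lowest correlation. The mean was lower in Zfp148gt/+ mice for 31 members and higher for 16. That is 66.0% lower, against 45.2% of all clusters and 58.4% of the brighter clusters. limma with Benjamini-Hochberg adjustment called 0 of 47 members and 0 of all 33793 clusters (0.0% of clusters), and the smallest adjusted p of a member was 0.725. At an unadjusted limma p under 0.05, 2 members were lower, Nek2 and Cdk1, and 0 were higher. The share of all clusters at that level was 2.88% lower and 3.88% higher, and among the brighter clusters 5.08% and 2.41%. The 2 of 47 members that were lower (4.26%) lay between 2.88% and 5.08%. For 0 members did the 6 Zfp148gt/+ mice and the 6 controls fail to overlap, against 0.0829% of all clusters lower and 0.225% higher. The 95% confidence intervals left out a 2-fold difference in either direction for 46 of the 47 members, Bub3 being the exception, and a 1.5-fold difference for 37. In bulk tissue, fewer dividing cells and less RNA of these genes per cell cannot be told apart.

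**Figure D1:**
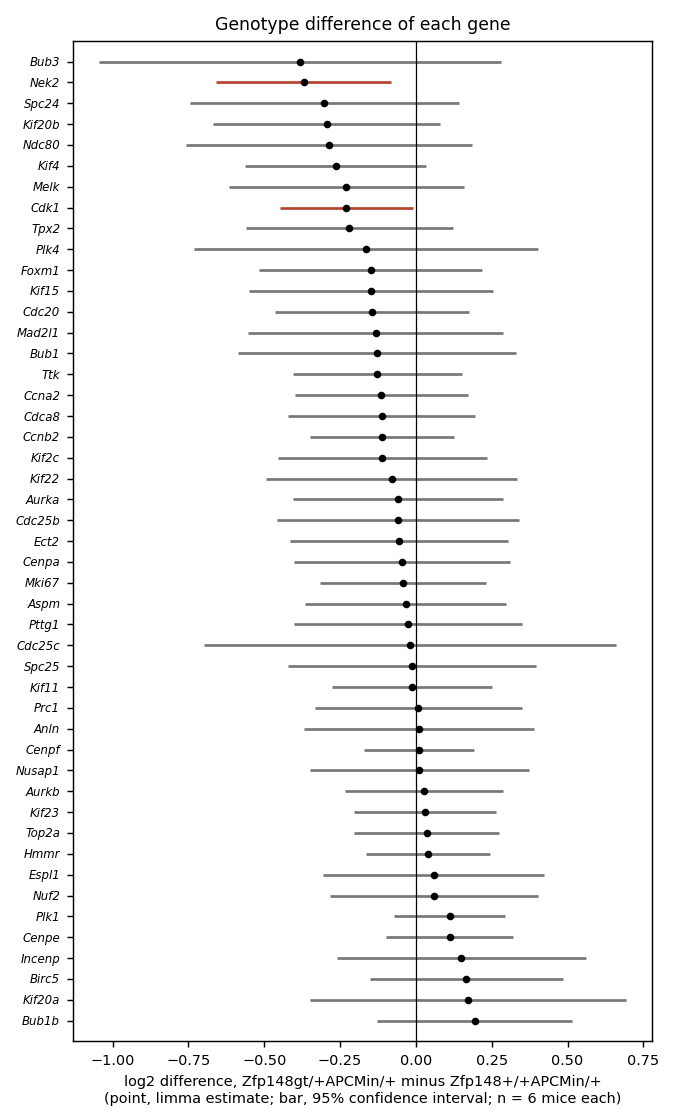
Log2 difference of each of the 47 measured genes, Zfp148gt/+APCMin/+ minus Zfp148+/+APCMin/+ (points, 6 mice per genotype, and bars, 95% limma confidence intervals), ordered by the difference. The points lie between -0.38 and 0.19, and the intervals of Nek2 and Cdk1, drawn in red, are the ones that leave out 0.

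The promoters of these genes share sequence that the choice of the genes did not use. The cell cycle genes homology region (CHR) is the element through which DREAM and the MuvB complexes bind late cell cycle promoters, and CCAAT is the box bound by NF-Y. RefSeq promoter entries of GRCm38.p6, from 250 bases before to 50 bases after the annotated start, were at hand for 41 of the 49 members. The letters TTTGAA or TTCGAA, searched on both strands, were present in 31 of these 41 promoters (75.6%), against 44 of 88 promoters of other mitosis genes, 24.2% of 33 promoters of S-phase replication genes, 16.3% of 10084 promoters of genes above the median signal and 21.7% of all 27025 promoters. In 29 of the 31 the match began within 50 bases of the start. The letters CCAAT, searched on both strands, were present in 29 of 41 promoters (70.7%), against 60.2%, 60.6%, 41.8% and 41.1% in the same 4 sets. Both motifs occurred together in 26 members (63.4%), against 34.1%, 15.2%, 6.78% and 8.61%, and the closest pair of matches lay a median of 25 bases apart. The E2F letters TTGGCG or TTCGCG, also on both strands, showed another order, with 12 of 41 members (29.3%), 34.1% of other mitosis genes, 57.6% of S-phase genes, 19.7% of genes above the median signal and 12.1% of all promoters. Of 14 E2F matches in members, 3 overlapped a CCAAT match. These are matches of letters and not measured binding.

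The stretches below show how the letters are arranged in 5 promoters that hold both motifs and in that of Nek2, the member of smallest p, whose printed stretch has a CCAAT match and no CHR letters. They run 5′ to 3′ on the strand of the gene, from 200 bases before the gene start in the entry to at most 30 bases after it, as given by RefSeq for GRCm38.p6. Capitals mark the CHR letters, which read TTCAAA when the first form lies on the other strand, and the CCAAT box, which then reads ATTGG. The Cdk1 stretch is chr10:69352883-69353112, minus strand. The Ccnb2 stretch is chr9:70421525-70421754, minus strand, and that of Cdc20 is chr4:118437314-118437543, minus strand. The Top2a stretch, with 4 CHR and 5 CCAAT matches, is chr11:99024170-99024389, minus strand. That of Kif11 is chr19:37376182-37376411, plus strand, and that of Nek2 is chr1:191821273-191821478, plus strand.
Cdk1: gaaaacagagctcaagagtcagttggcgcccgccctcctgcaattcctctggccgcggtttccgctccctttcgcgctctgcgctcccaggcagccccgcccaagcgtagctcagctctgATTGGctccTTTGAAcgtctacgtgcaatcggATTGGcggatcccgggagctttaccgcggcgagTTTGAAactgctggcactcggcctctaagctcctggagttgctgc
Ccnb2: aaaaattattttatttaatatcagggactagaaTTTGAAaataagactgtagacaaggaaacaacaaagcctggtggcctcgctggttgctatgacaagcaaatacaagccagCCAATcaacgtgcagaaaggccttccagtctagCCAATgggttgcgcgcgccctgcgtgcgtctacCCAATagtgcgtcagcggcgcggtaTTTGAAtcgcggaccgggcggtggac
Cdc20: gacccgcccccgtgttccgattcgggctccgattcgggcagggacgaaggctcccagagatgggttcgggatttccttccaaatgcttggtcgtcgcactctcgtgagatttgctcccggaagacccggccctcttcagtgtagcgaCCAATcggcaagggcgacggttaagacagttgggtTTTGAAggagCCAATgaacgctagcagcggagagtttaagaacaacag
Top2a: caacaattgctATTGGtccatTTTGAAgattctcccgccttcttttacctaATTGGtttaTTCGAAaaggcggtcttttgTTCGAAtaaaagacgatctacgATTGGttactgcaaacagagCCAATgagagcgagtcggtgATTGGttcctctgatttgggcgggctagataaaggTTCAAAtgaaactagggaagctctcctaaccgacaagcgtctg
Kif11: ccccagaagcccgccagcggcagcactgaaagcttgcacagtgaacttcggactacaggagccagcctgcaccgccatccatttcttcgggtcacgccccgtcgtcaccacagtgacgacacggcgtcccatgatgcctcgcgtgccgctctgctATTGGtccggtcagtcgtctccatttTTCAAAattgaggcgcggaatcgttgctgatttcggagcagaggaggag
Nek2: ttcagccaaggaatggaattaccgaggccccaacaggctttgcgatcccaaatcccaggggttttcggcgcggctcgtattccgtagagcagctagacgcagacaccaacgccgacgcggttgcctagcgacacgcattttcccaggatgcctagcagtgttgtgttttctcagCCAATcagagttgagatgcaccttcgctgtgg

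The genes of mitotic entry all had a lower mean in Zfp148gt/+ mice, 7 of 7 measured, with a median difference of -0.11. Of the brighter clusters 58.4% had a lower mean, and of all clusters 45.2%. Cdk1 alone, 1 of 7, was at an unadjusted limma p under 0.05, beside 5.08% and 2.88% lower in those 2 sets. The same shares stand beside the counts of the other roles below. Cdk1 (transcript cluster 17241692) encodes the kinase that starts mitosis. Its log2 signal was 8.06, 8.09, 8.05, 8.32, 8.25 and 8.09 in Zfp148gt/+ mice 783, 891, 892, 893, 897 and 911, and 8.17, 8.52, 8.65, 8.40, 8.33 and 8.16 in control mice 782, 885, 888, 889, 895 and 899. All 6 Zfp148gt/+ mice lay below the control median and 4 lay below the lowest control, while controls 782 and 899 fell within the Zfp148gt/+ range. The difference was -0.23 (95% confidence interval -0.45 to -0.01), or 0.853 of the control signal, with limma's adjusted p = 0.731. An exact two-sided permutation test (n = 6 and 6) gave p = 0.0325. This permutation p uses the same values as the limma p and was not adjusted for the number of members. Ccnb2, a B-type cyclin that activates Cdk1, ran from 8.995 to 9.50 with a median of 9.43 in Zfp148gt/+ mice and from 9.23 to 9.69 with a median of 9.48 in controls. Only mouse 891 lay below the lowest control, and the difference was -0.11 (-0.35 to 0.13; adjusted p = 0.847). Foxm1, a transcription factor that activates late cell cycle genes, ran from 4.69 to 5.33 with a median of 5.15 in Zfp148gt/+ mice and from 4.68 to 5.69 with a median of 5.40 in controls. All 6 Zfp148gt/+ mice were below the control median of Foxm1, yet within the control range, and the difference was -0.15 (-0.52 to 0.22; adjusted p = 0.871). The differences of Ccna2, the S-phase and G2 cyclin, Melk, a kinase abundant in dividing cells, and Cdc25b, a phosphatase that activates Cdk1, were -0.11, -0.23 and -0.06. Cdc25c, a related phosphatase, had nearly equal means, with a difference of -0.02, but its spread was unequal. It ranged from 3.63 in mouse 891 to 5.92 in mouse 892 among Zfp148gt/+ mice and only from 5.07 to 5.32 among controls, so that 3 Zfp148gt/+ mice lay above the highest control and 2 below the lowest.

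**Figure D2:**
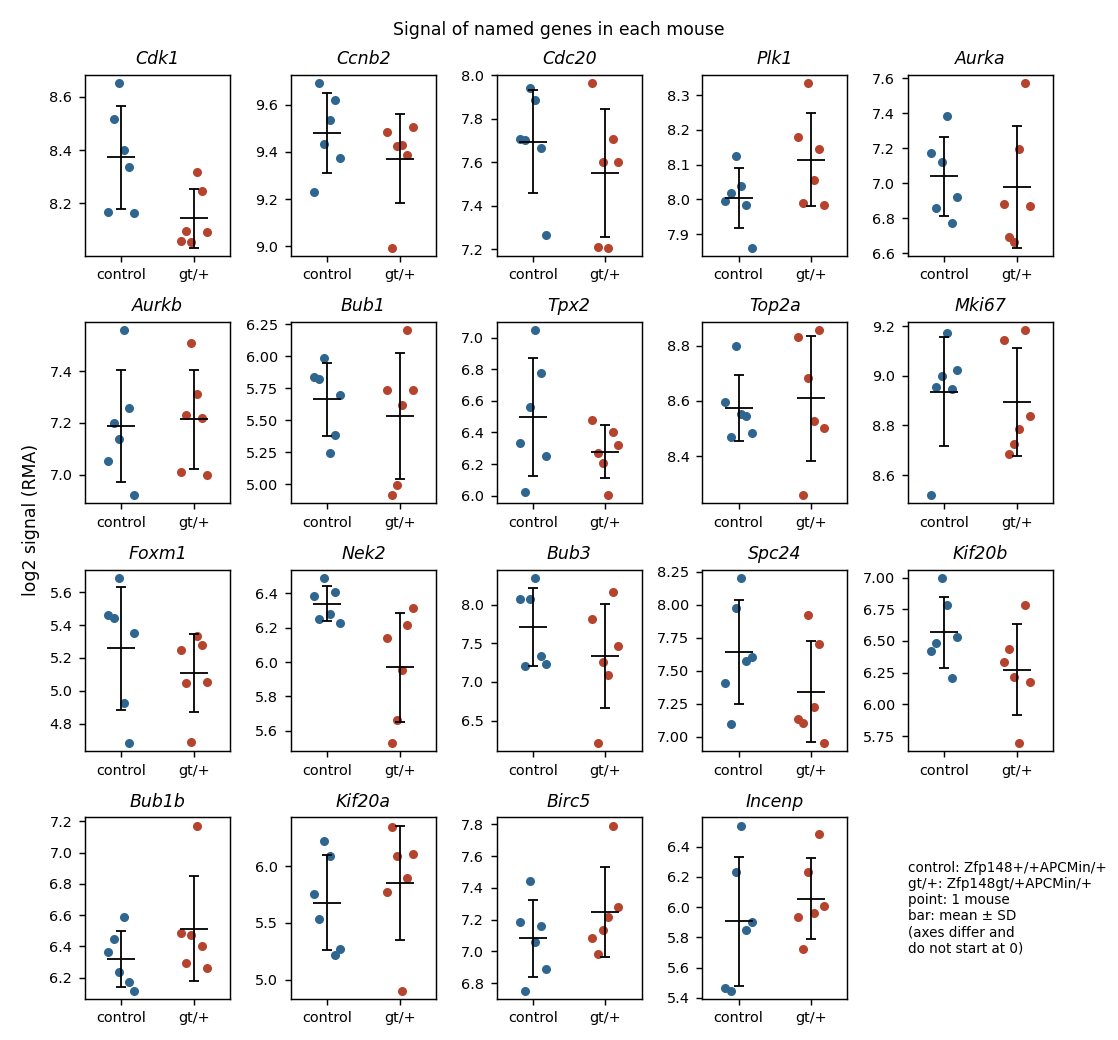
Log2 signal of selected genes in each mouse (points, 1 per mouse; horizontal lines and bars, mean ± SD of each genotype; axes do not start at 0). For Nek2 and Cdk1, 5 and 4 of 6 Zfp148gt/+APCMin/+ mice lay below the lowest control, and the other genes overlapped more widely.

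Among the kinases of the centrosome and spindle pole and their partner Tpx2, 4 of 5 had a lower mean in Zfp148gt/+ mice, with a median difference of -0.16. Nek2 (transcript cluster 17220844), a kinase that loosens the link between the centrosomes before they part, had the smallest p of all members. Its log2 signal was 6.14, 5.53, 5.66, 5.95, 6.21 and 6.32 in Zfp148gt/+ mice 783, 891, 892, 893, 897 and 911, and 6.39, 6.25, 6.49, 6.28, 6.41 and 6.23 in controls 782, 885, 888, 889, 895 and 899. In 5 of 6 Zfp148gt/+ mice the signal was below the lowest control, with only mouse 911 inside the control range, and the SD was 0.32 in Zfp148gt/+ mice and 0.10 in controls. The difference was -0.37 (-0.66 to -0.08), or 0.774 of the control signal, with limma's adjusted p = 0.725. An exact two-sided permutation test (n = 6 and 6) gave p = 0.0152. Nek2 was singled out by its limma p from these same values, and the permutation p was not adjusted for that choice. The low values of mice 891, 892 and 893 came from the 3 arrays that correlated least with the rest. Without these 3 arrays, a comparison added after the data were seen, the difference of Nek2 was -0.12. These arrays held the lowest Nek2 values of all mice, so leaving them out had to shrink the difference. Only Zfp148gt/+ mice 783, 897 and 911 then remained beside the 6 controls. Mice 892 and 893 were the only Zfp148gt/+ mice with a high signal of the female-linked gene Xist, 9.59 and 9.54. Controls 895 and 899 also had it, at 9.01 and 9.35, so that comparison removed such mice from 1 genotype only. The labels do not give the sex. When the fit of all arrays also held each array's interquartile range, the difference of Nek2 was -0.06. That range was 2.69 to 2.93 in Zfp148gt/+ mice and 2.795 to 3.005 in controls, and its part in the result was not tested further.

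Plk1, the polo kinase that acts from entry to cytokinesis, went the other way in its means. It ran from 7.98 to 8.34 with a median of 8.10 in Zfp148gt/+ mice and from 7.86 to 8.12 with a median of 8.01 in controls. In 3 Zfp148gt/+ mice the signal was above the highest control, and the difference was 0.11 (-0.07 to 0.29; adjusted p = 0.801). Aurka, the kinase that matures centrosomes, ran from 6.66 to 7.57 with a median of 6.88 in Zfp148gt/+ mice and from 6.77 to 7.38 with a median of 7.02 in controls. The Zfp148gt/+ mice extended past the controls at both ends, 892 and 1 other mouse below and 897 above, and the difference was -0.06 (-0.41 to 0.29; adjusted p = 0.953). Tpx2, which activates Aurka on the spindle, ran from 6.003 to 6.48 with a median of 6.29 in Zfp148gt/+ mice and from 6.02 to 7.05 with a median of 6.45 in controls, a difference of -0.22 (-0.56 to 0.12; adjusted p = 0.796). The highest control, mouse 889, was well above every Zfp148gt/+ mouse. Plk4, which starts centriole duplication, differed by -0.16 and was lowest in mouse 893, at 4.94.

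The chromosomal passenger complex, which corrects faulty attachments and guides cytokinesis, had higher means in Zfp148gt/+ mice for 3 of its 4 subunits, with a median difference of 0.09 and no subunit at an unadjusted p under 0.05. Its kinase Aurkb ran from 7.0001 to 7.51 with a median of 7.22 in Zfp148gt/+ mice and from 6.92 to 7.56 with a median of 7.17 in controls, a difference of 0.03 (-0.23 to 0.29; adjusted p = 0.972). Birc5, the survivin subunit, ran from 6.99 to 7.79 with a median of 7.17 in Zfp148gt/+ mice and from 6.75 to 7.44 with a median of 7.11 in controls, a difference of 0.17 (-0.15 to 0.48; adjusted p = 0.829). Only mouse 897 lay above the highest control for Birc5. Incenp, the scaffold, ran from 5.72 to 6.48 with a median of 5.98 in Zfp148gt/+ mice and from 5.45 to 6.54 with a median of 5.87 in controls, a difference of 0.15 (-0.26 to 0.56; adjusted p = 0.885), and no Zfp148gt/+ mouse left the control range. Cdca8, or borealin, differed by -0.11.

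Of the 5 spindle checkpoint genes 4 had a lower mean in Zfp148gt/+ mice, with a median difference of -0.13, and 0 were at an unadjusted p under 0.05. Bub1, a kinetochore kinase, ran from 4.92 to 6.20 with a median of 5.68 in Zfp148gt/+ mice and from 5.24 to 5.98 with a median of 5.76 in controls, a difference of -0.13 (-0.59 to 0.33; adjusted p = 0.917). Bub3, its WD-repeat partner, had the largest difference of any member. It ran from 6.21 in mouse 891 to 8.16 in mouse 897 with a median of 7.36 in Zfp148gt/+ mice and from 7.21 to 8.35 with a median of 7.71 in controls. The groups overlapped for 4 of 6 Zfp148gt/+ mice, and the difference was -0.38 (-1.04 to 0.28; adjusted p = 0.810). Bub1b, which encodes BubR1 and binds Cdc20 within the checkpoint complex, had the largest difference upward. It ran from 6.26 to 7.17 with a median of 6.44 in Zfp148gt/+ mice and from 6.12 to 6.59 with a median of 6.30 in controls, a difference of 0.19 (-0.13 to 0.52; adjusted p = 0.802). Mouse 893 alone lay above the highest control. Mad2l1, which binds Cdc20 directly, and Ttk, the kinase at the head of the pathway, both differed by -0.13.

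At anaphase onset Cdc20, the activator of the anaphase-promoting complex, ran from 7.21 to 7.97 with a median of 7.60 in Zfp148gt/+ mice and from 7.27 to 7.94 with a median of 7.70 in controls. The ranges were nearly the same, and the difference was -0.15 (-0.47 to 0.18; adjusted p = 0.854). Espl1, the separase that cuts cohesin, and Pttg1, the securin that holds it inactive, differed by 0.06 and -0.03.

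The 7 genes of the centromere and kinetochore split into 4 lower and 3 higher, with a median of -0.01. Spc24, a subunit of the Ndc80 complex that grips microtubules, ran from 6.95 to 7.92 with a median of 7.18 in Zfp148gt/+ mice and from 7.10 to 8.20 with a median of 7.59 in controls. The groups overlapped widely, with 1 Zfp148gt/+ mouse below the lowest control, and the difference was -0.30 (-0.75 to 0.14; adjusted p = 0.784). The other subunits of the same complex were unequal, with Ndc80 at -0.29, Nuf2 at 0.06 and Spc25 at -0.01. Cenpa, the centromeric histone, differed by -0.05, Cenpe, a kinetochore motor, by 0.11 and Cenpf, a large kinetochore protein, by 0.01.

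All 5 spindle kinesins had a lower mean in Zfp148gt/+ mice, as did 58.4% of the brighter clusters. The median of the 5 was -0.11, with 0 at an unadjusted p under 0.05. Kif4, a chromosome-bound motor, came nearest with -0.26 (-0.56 to 0.03; exact two-sided permutation p = 0.0887, n = 6 and 6). Kif15, which helps keep the spindle bipolar, Kif2c, which takes microtubules apart, and Kif22, which pushes chromosome arms, differed by -0.15, -0.11 and -0.08, and Kif11, the motor that separates the poles, by -0.01. The spindle assembly proteins Hmmr, Nusap1 and Aspm, which act on spindle microtubules and poles, differed by 0.04, 0.01 and -0.03. For Nusap1 the means were equal to within 0.01 but the SD was 0.43 in Zfp148gt/+ mice and 0.08 in controls, with mouse 783 at 7.52.

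Top2a and Mki67, which disentangle and coat mitotic chromosomes and are widely used to mark dividing cells, showed no detectable difference. Top2a ran from 8.26 to 8.86 with a median of 8.61 in Zfp148gt/+ mice and from 8.47 to 8.80 with a median of 8.55 in controls, a difference of 0.04 (-0.20 to 0.27; adjusted p = 0.960). Mki67 ran from 8.68 to 9.18 with a median of 8.81 in Zfp148gt/+ mice and from 8.52 to 9.17 with a median of 8.98 in controls, a difference of -0.04 (-0.32 to 0.23; adjusted p = 0.958). Both intervals leave out a 1.5-fold difference in either direction.

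Among the 6 cytokinesis genes 2 had a lower and 4 a higher mean, with a median of 0.01. Kif20a, a motor of the central spindle, ran from 4.91 to 6.34 with a median of 5.99 in Zfp148gt/+ mice and from 5.21 to 6.22 with a median of 5.64 in controls, a difference of 0.17 (-0.35 to 0.69; adjusted p = 0.900). Its relative Kif20b differed the other way, from 5.70 to 6.78 with a median of 6.28 in Zfp148gt/+ mice and from 6.20 to 6.996 with a median of 6.51 in controls, a difference of -0.29 (-0.67 to 0.08; adjusted p = 0.762). For Kif20b 5 of 6 Zfp148gt/+ mice lay below the control median, and for Kif20a 1 did. Kif23 and Prc1, which bundle the central spindle, Anln, which organizes the contractile ring, and Ect2, which activates RhoA there, differed by 0.03, 0.01, 0.01 and -0.06.

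**Figure D3:**
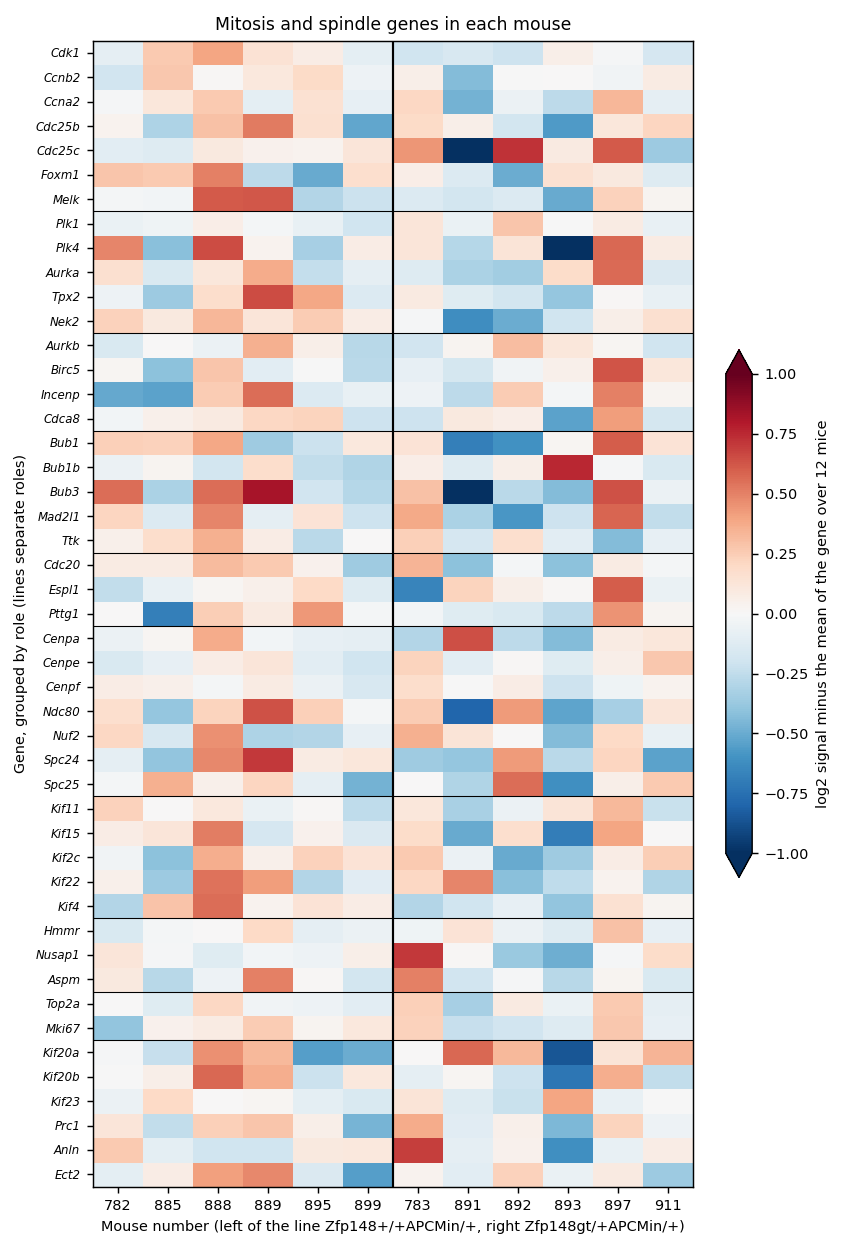
Deviation of each gene from its mean over 12 mice on the log2 scale (rows, 47 genes by role; columns, mice by genotype; colours clipped at the ends of the scale). Most genes of mice 888 and 897 lie above their own mean and most of mice 891, 893 and 899 below it, within both genotypes.

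The members tended to deviate together within a mouse, and mice of 1 genotype ranged more widely than the genotype means differed. In mouse 888 41 of the 47 members were above their own mean over the 12 mice, with a mean deviation of 0.25, and in mouse 897 38 were, with 0.20. In mice 891, 893 and 899 only 11, 12 and 13 members were above their mean, with mean deviations of -0.20, -0.24 and -0.12. High and low mice thus occurred in both genotypes. Controls 782, 885, 889 and 895 had mean deviations of 0.02, -0.08, 0.17 and -0.03, and Zfp148gt/+ mice 783, 892 and 911 had 0.10, -0.04 and -0.04.

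As a description across 12 mice, with deviations taken from the genotype mean, the 1081 pairs of members had a median Pearson r of 0.284 and a median Spearman rho of 0.252, and 78.9% of the pairs had an r above 0. The arrays share their normalization, so the pairs are not independent. Within the 6 Zfp148gt/+ mice the median r was 0.292 and within the 6 controls 0.311. All pairs of clusters above the median signal had a median r of 0.005, with 50.6% above 0. Other mitosis genes had a median r of 0.140, S-phase genes 0.260, stromal markers 0.308 and villus markers 0.462, so a shared rise and fall was not particular to mitosis genes. The closest pair was Cdc20 and Prc1 (r = 0.892, rho = 0.902), followed by Ccna2 and Top2a (r = 0.887, rho = 0.685) and Incenp and Spc24 (r = 0.878, rho = 0.853). Prc1, Bub3 and Cdc20 had the highest median r with the other members, 0.49, 0.46 and 0.46. Kif23 and Bub1b had the lowest, -0.13 and -0.11. Both were highest in mouse 893, at 7.56 and 7.17, the mouse with the lowest mean deviation of the members. Whether their low r rests on mouse 893 was not tested.

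**Figure D4:**
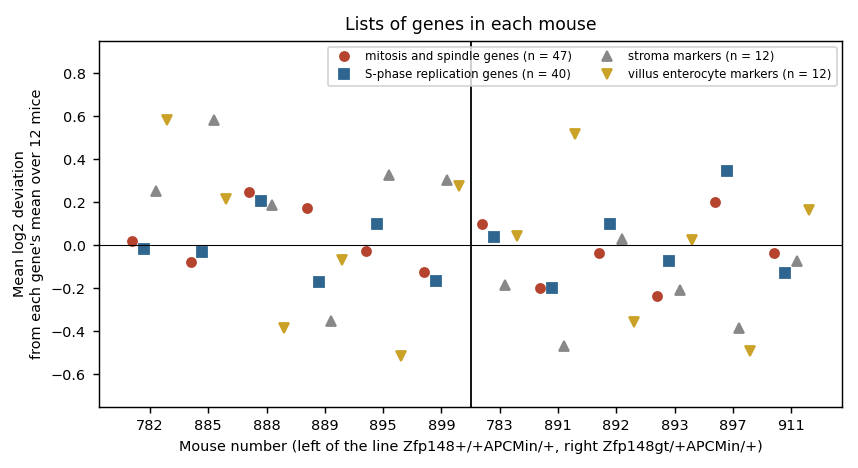
Mean deviation of the mitosis genes and of comparison lists in each mouse, from each gene's mean over 12 mice on the log2 scale (symbols, lists, set side by side for each mouse; mice ordered by number within genotype, an order with no meaning). Mitosis genes were highest in control 888 and Zfp148gt/+APCMin/+ mouse 897, and lowest in Zfp148gt/+APCMin/+ mice 893 and 891.

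S-phase replication genes followed the mitosis genes in some mice and not in others. Their mean deviation was 0.20 in mouse 888, 0.35 in mouse 897, -0.20 in mouse 891 and -0.17 in mouse 899. In mouse 889 it was -0.17 where that of the members was 0.17, and in mouse 893 it was -0.07 where that of the members was -0.24. Between genotypes, 22 of the 40 S-phase genes measured were lower and 18 higher in Zfp148gt/+ mice, with a median of -0.0034. At an unadjusted limma p under 0.05, 0 of the 40 were lower and 1 was higher. The shares were 5.08% and 2.41% among the brighter clusters, and 2.88% and 3.88% among all clusters. The 1 higher gene was Prim2, a subunit of primase, with 0.45 (0.09 to 0.81, limma's adjusted p = 0.725). The difference between the S-phase and the mitosis genes was not tested.

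Further genes of the same machinery were taken from lists of textbook complexes, of which 102 of 107 genes were measured. Their mean was lower in Zfp148gt/+ mice for 72 (70.6%) and higher for 30, beside 58.4% of the brighter clusters lower. The median difference of these genes was -0.08, and 0 passed the adjusted threshold. At an unadjusted p under 0.05, 6 (5.88%) were lower and 0 higher, beside 5.08% and 2.41% of the clusters above the median signal. Cdc26, a small subunit of the anaphase-promoting complex, had the smallest p of these. It ran from 5.97 to 7.02 with a median of 6.52 in Zfp148gt/+ mice and from 7.03 to 8.39 with a median of 7.35 in controls, so that the genotypes did not overlap. This held for 1 of the 102 genes, beside 0.0829% of all clusters lower and 0.225% higher. The difference of Cdc26 was -1.03 (-1.58 to -0.48), with limma's adjusted p = 0.705. An exact two-sided permutation test (n = 6 and 6) gave p = 0.0022, the smallest that 6 mice against 6 allow. Any gene without overlap receives this value, and it was not adjusted for the choice of Cdc26 by smallest p. The other subunits and partners of the complex did not share the size of the Cdc26 difference. Over all 16 the median was -0.12, with 12 lower and 4 higher.

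Trip13, an ATPase that takes the checkpoint protein Mad2 apart from its partners, differed by -0.47 (-0.79 to -0.16, limma's adjusted p = 0.725). It was the only 1 of 13 measured genes of entry switches and their transcription at an unadjusted limma p under 0.05. That is 7.69%, beside 5.08% of the brighter clusters and 2.88% of all clusters lower. Of 25 further kinetochore and checkpoint genes 18 were lower and 7 higher, with a median of -0.11. Cenpt, Cenpc1 and Zw10, which anchor the outer kinetochore or recruit dynein to it, differed by -0.45, -0.25 and -0.39 (limma's adjusted p = 0.725 each). They were the 3 of 25 (12%) at an unadjusted limma p under 0.05, beside 5.08% of the brighter clusters and 2.88% of all clusters lower. Stil, needed for centriole duplication, differed by -0.50 (-0.96 to -0.05, limma's adjusted p = 0.725). It was the 1 gene (3.33%) at that unadjusted level among 30 further spindle and cytokinesis genes. Of these 30, 20 were lower and 10 higher, with a median of -0.13. Of 18 condensin and cohesin genes 14 were lower and 4 higher, with a median of -0.05 and 0 at an unadjusted p under 0.05. Ncapd2, a condensin subunit, had the smallest p among them, with a difference of -0.25 (-0.68 to 0.17; adjusted p = 0.803).

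Stromal markers had lower means in Zfp148gt/+ mice, 12 of 12 with a median of -0.44, but 0 passed the adjusted threshold (smallest adjusted p = 0.705). At an unadjusted p under 0.05, 5 of 12 were lower, beside 2.88% of all clusters and 5.08% of the brighter clusters. Their mean log2 level was 6.41 to 6.90 in Zfp148gt/+ mice and 6.53 to 7.46 in controls, so the genotypes overlapped. Villus enterocyte markers were 5 lower and 7 higher, at 5.58 to 6.58 and 5.56 to 6.65, and T cell markers 5 lower and 2 higher, at 3.74 to 4.92 and 3.84 to 5.40. With the stromal level as a covariate the median difference of the members was -0.16 and 5 of 47 members were lower at an unadjusted limma p under 0.05, beside 3.24% of all clusters in that fit. They were Tpx2, Kif22, Melk, Kif20b and Spc24, and 0 passed the adjusted threshold. Nek2 and Cdk1 were not among them, at -0.34 and -0.25. With the interquartile range in the fit, the members at that level were Spc24 and Aurkb in place of Nek2 and Cdk1, both lower, at -0.72 and -0.28, beside 1.92% of all clusters. The share among the brighter clusters, where all members lie, was not computed for either fit. Whether the stromal level has a part in the differences of the members was not tested.

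The spread among Zfp148gt/+ mice was larger than among controls for 32 of the 47 members, 68.1% beside 58.8% of all clusters and 60.4% of the brighter clusters. The median SD of the members was 0.294 in Zfp148gt/+ mice and 0.241 in controls, and for the brighter clusters it was 0.313 and 0.270.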

How the data were processed

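Expression in laser-microdissected crypt-enriched tissue of 12 mice was analysed, with genotype and mouse number taken from the sample labels. The authors normalized the Affymetrix Gene 2.0 ST arrays by RMA in Affymetrix Expression Console and deposited 1 value per transcript cluster and mouse on what was read, from its range of 0.85 to 13.24, as a log2 scale; the version, the library files and the build are not stated in the sources at hand. RMA forces the arrays towards 1 distribution of signal, so a change shared by most genes would not be seen, and levels of different genes were not compared. Array medians were 2.64 to 2.78. Array signal carries no depth, so precision is set by 6 mice per genotype.

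Of 33793 clusters, 23521 carried a single symbol, 1820 several and 8452 none. Differences, Zfp148gt/+APCMin/+ minus Zfp148+/+APCMin/+, were fitted in limma 3.58.1 (lmFit, then eBayes; R 4.3.3) over all clusters with Benjamini-Hochberg adjustment, a threshold of 0.05, 95% intervals and no filter. Single values were also compared over all 924 assignments of 12 arrays into 6 and 6. These permutation p were not adjusted for the number of genes or for how the genes were picked. The fit was tested on simulated data. Promoter letters were searched with Python 3.11.15. Joins used pandas 2.3.3 and figures matplotlib 3.10.9. Full values were given for Cdk1, Ccnb2, Cdc20, Plk1, Aurka, Aurkb, Bub1, Tpx2, Top2a, Mki67 and Foxm1 (Ccnb1 being not measured), for members at an unadjusted p under 0.05 and for the 4 largest differences per direction; of other lists at most 3 genes were named by smallest p. Values of Cdc25c, Plk4 and Nusap1 for single mice fall outside that rule and were chosen after they were seen. The members and lists were chosen with earlier results of these data known. Alternatives covered centring, a second quantile normalization, brighter clusters only, trend and robust eBayes, array weights, covariates, an ordinary t-test and each mouse left out.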

Additional observations from a re-analysis of the deposited data

Results flagged for a closer look

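In 5 of 94 groups of 6 mice tested, 1 mouse stood far from the others, where chance gives about 1 in 20. The measure is the gap to the nearest mouse over the whole range of the group, with a critical value of 0.625. Mouse 891 was lowest of the Zfp148gt/+ mice for Ccnb2, at a log2 signal of 8.995, with a gap of 0.772 of the range. Mouse 897 was highest of them for Birc5, at 7.79, with 0.635. Mouse 893 was highest of them for Bub1b, at 7.17, with 0.756. Among controls, mouse 888 was highest for Cenpa, at 7.26, with 0.766, and mouse 782 lowest for Mki67, at 8.52, with 0.654.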

How the results depend on the processing

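No member passed the adjusted threshold, and 0 were higher at an unadjusted p under 0.05, in any of 13 alternatives or with any mouse left out. The count of members lower at an unadjusted limma p under 0.05 was 2, beside 2.88% of all clusters and 5.08% of the brighter clusters. It became 1 with a second quantile normalization (2.71% of all clusters), with the brighter clusters only (4.39% of those), with trend and robust eBayes (2.57%) and with array weights (2.74%). It was 3, with Kif4, after centring (4.45%) and with the villus covariate (2.97%), 5 with stromal markers as a covariate (3.24%), and 0 without the 3 arrays of lowest correlation (2.13%), a setting chosen after the data were seen. With a mouse left out it was 1 to 4 (2.598% to 3.717%). The count was 1 without control 885, 888, 889 or 895 or without Zfp148gt/+ mouse 783, 891, 892 or 911, and 4 without 897. Nek2 kept an unadjusted p under 0.05 in 10 of the 13 alternatives and 12 of 12 fits without a mouse. Cdk1 kept it in 6 and 4. Not all of the 13 alternatives were free to change this p. Adjustment over single-symbol clusters leaves it as it is, and the mean of a gene's rows leaves the values of every member unchanged. The counts out of 13 are therefore no measure of stability. An ordinary t-test, in place of the limma test that the methods name for the arrays, passed 0 of 33793 clusters after Benjamini-Hochberg adjustment. It had 2.36% lower and 4.34% higher at an unadjusted p under 0.05. The median difference of the members, -0.06, ran from -0.16 with the stromal covariate to 0.0088 with a second quantile normalization and 0.07 without the 3 arrays, and from -0.11 to -0.0046 with a mouse left out. Centring moved the median of all clusters from 0.02 to -0.02 and that of the members to -0.10. At an unadjusted p under 0.05 centring gave 4.45% of clusters lower and 2.06% higher.

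Of 247 values of 19 named members, 20 changed direction, none past the adjusted threshold, and the cause was not tested. Not all of the 247 were free to change. Brighter clusters only, trend and robust eBayes, the ordinary t-test and adjustment over single-symbol clusters leave the estimate as it is. So does the mean of a gene's rows, as each member has 1 cluster. The share that turned is therefore no measure of stability. Centring turned Aurkb to -0.017 and Top2a to -0.0080. A second quantile normalization turned Aurka to 0.0035 and Mki67 to 0.0033. The stromal covariate turned Aurkb to -0.10, Incenp to -0.19, Kif20a to -0.12, Ccnb2 to 0.0046 and Bub1 to 0.016. The interquartile range as a covariate turned Aurkb to -0.28, Incenp to -0.10, Bub1b to -0.023, Bub1 to 0.32 and Foxm1 to 0.064; Aurkb and Spc24 were then at an unadjusted p under 0.05 (1.92% of all clusters) and Nek2 and Cdk1 were not. Without the 3 arrays Aurkb was -0.11, Aurka 0.070, Mki67 0.12, Bub1 0.23, Cdc20 0.063 and Bub3 0.10. With a mouse left out Aurka ran from -0.18 to 0.010, Aurkb from -0.033 to 0.10, Top2a from -0.014 to 0.11 and Mki67 from -0.13 to 0.0047. Under the 13 alternatives Nek2 and Cdk1 were lower throughout, from -0.41 to -0.06 and from -0.28 to -0.18. No paired analysis was possible because the labels give every mouse a number of its own and name no litters.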
